A study of Callithrix jacchus with 20 samples.

Results

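Embryoid bodies (EBs) grown from 5 marmoset embryonic stem cell lines made by somatic cell nuclear transfer (SCNT) were set against EBs grown from 3 lines of fertilized embryos, to ask which lineages the cloned lines formed and how much the lines of each group differed. The comparison took every EB library of the series, 8 of its 20 libraries, and 1 library stood for each line. The control EBs came from wild-type ESC lines, #13 and #37 of naturally fertilized embryos (NAT) and #17 of an embryo fertilized in vitro (IVF). The SCNT-derived EBs (ntEBs) came from ntESC lines #30, #53 and #61, cloned from wild-type fibroblasts (ntEB WT), and #24 and #50, cloned from fibroblasts of CAG-EGFP transgenic animals (ntEB GFP), in which a ubiquitous promoter drives the fluorescent protein. Per the labels, SCNT embryos received mouse Kdm4d mRNA, which encodes an H3K9 demethylase, a G9a inhibitor, which blocks the enzyme that writes H3K9 dimethylation, and trichostatin A, an inhibitor of histone deacetylases. Nuclear transfer, these treatments and the donor animals therefore differed together between the groups and cannot be told apart. The paper also gives different passage ranges for control ESCs and ntESCs, and states that the conditions differ in their proportion of male and female cells. Each line was measured once, so p-values measured only the spread between lines, some of which may share a donor.

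An EB is a suspended aggregate in which pluripotent cells leave the pluripotent state and form mixtures of cell types of the germ layers and, in primates, of extraembryonic tissues. Yolk sac endoderm and fetal liver share a secretory program of plasma proteins such as alpha-fetoprotein, transferrin and apolipoproteins. Amnion and trophoblast are epithelia that share the transcription factors GATA2, GATA3 and TFAP2A, while mesenchyme is known for fibrillar collagens and for PDGF receptors. Which of these an EB holds is known to vary between lines of the same species, since EB culture leaves the choice of lineage largely to the cells.

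The values were TPM, transcript abundance scaled to the same total in each library, and differences were taken on the log2(TPM + 0.1) scale. The 16621 genes that averaged 0.5 TPM or more over the 8 libraries were tested. A TPM table keeps no library totals. Relative depth, estimated from the size of low values, lay between 0.997 and 1.04 in control EBs and was 1.23 in #30, 1.06 in #53, 1.20 in #61, 0.787 in #24 and 1.33 in #50. The number of genes at 1 TPM or more ran from 13678 in #61 to 15655 in #24, and the 50 most abundant genes held from 17.9% of all TPM in #24 to 26.9% in #53. The median gene sat 0.37 above the control mean on the log2 scale in #24 and between -0.08 and 0.01 in the other ntEB lines. Of the defining markers examined, the blood marker PTPRC reached at most 0.284 TPM in any EB library, and the neural markers PAX6 and SOX1 reached at most 0.184 and 0.119 TPM. The basal keratin KRT5 stayed at or below 0.695 TPM.

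No gene passed the test of ntEB against control EB at an adjusted p of 0.05 (limma, Benjamini-Hochberg), a share of 0% of the genes tested. At an unadjusted p under 0.05, 384 genes were higher in ntEB, 2.31% of those tested, and 614 were lower, 3.69%. The 2 groups did not overlap for 391 genes that were higher in every ntEB line (2.35%) and 335 that were lower in every ntEB line (2.02%). The median difference over all genes was 0.07 log2 units, with 56.8% of genes above 0. The smallest adjusted p, 0.0753, belonged to LOC118148466, a small nucleolar RNA listed at 0 in the 3 control EBs and at 3.24 TPM in #30, 2.50 in #53, 9.97 in #61, 3.37 in #24 and 2.99 in #50. In the stem cells of these lines its log2 difference was of the other sign, -1.74. There it was at 2.30, 2.36 and 1.14 TPM in control #13, #37 and #17. It was listed at 0 in #30 and #61, and was at 1.42, 1.15 and 3.44 TPM in #53, #24 and #50.

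A single line decided that count. Each line was left out in turn, and without ntEB WT #61 the same fit passed 330 genes as higher, 1.98% of 16655 tested, and 272 as lower, 1.63%. Leaving out any other line gave between 0 and 2 genes. Values without #61 are therefore given beside those with all 5 ntEB lines. Line #61 was singled out after its effect on the count was seen. Adjusted p-values without it thus do not hold their nominal level, and a gene said to pass without #61 is described for the remaining lines only. Line #61 had the fewest genes at 1 TPM or more, and its mitochondrial genes held 1.48% of all TPM, against 0.569% to 1.03% in the other 7 EBs. The part of these in the result was not tested.

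The spread between lines was larger among the ntEBs. For each gene the mean absolute difference over all pairs of lines of a group was taken, in log2 units, and its median over genes was 0.706 among ntEB lines and 0.335 among control lines. The spread was larger among ntEBs for 83.0% of genes, with a median difference of 0.313. In an exact permutation test over the 56 ways of choosing 5 of the 8 lines the two-sided p was 0.0357, where the smallest possible is 0.0179. Without #61 the difference was 0.209 with p = 0.314, and without #24 it was 0.191 with p = 0.143, both by the exact permutation test. Each line kept its measured expression in this test. Splits that mixed ntEB and control lines therefore also took in any offset of the group means. The p-values of the permutation test thus do not refer to spread alone. Within a genotype the median was 0.648 among the 3 WT lines and 0.669 between the 2 GFP lines, both above the control value. The ratio of ntEB to control spread was 1.85, 2.11, 2.05 and 2.11 over 4 classes of genes of equal size, from the lowest to the highest expression.

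Pairs of libraries showed the same difference gene by gene. Among pairs of control EBs, between 589 and 702 genes lay over 4-fold apart, 3.54% to 4.22% of those tested. Among the 10 ntEB pairs the count ran from 584 (3.51%) between #53 and #50 to 3848 (23.2%) between #61 and #24, with a median of 14.1%. The closest ntEB pair, which crossed the WT and GFP genotypes, was thus as alike as control lines were, and the most distant pair differed at more genes than any ntEB and control pair did (at most 2968, 17.9%). Over 4-fold apart among ntEBs but under 2-fold among controls were 902 genes, 5.43% of those tested, and the reverse held for 83 genes, 0.499%. In log2 distance over all genes, #61 lay nearest to the controls (mean distance 135), followed by #50 (138), #53 (153), #30 (179) and #24 (225), while the 3 pairs of control lines lay 106 to 116 apart. By the count of genes over 4-fold apart #50 was nearer to the controls (822 to 1288 genes) than #61 (1024 to 1409), so the order of these lines depended on the measure. The first principal component held 43.7% of the variance and set #61 at -104, controls at -64.6 to -36.1, #53 at 28.1, #50 at 34.2, #30 at 64.3 and #24 at 138. The controls thus lay between #61 and the other 4 ntEB lines on that axis, so that an average over the ntEB lines joined lines from both sides of the controls.

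**Figure D1:**
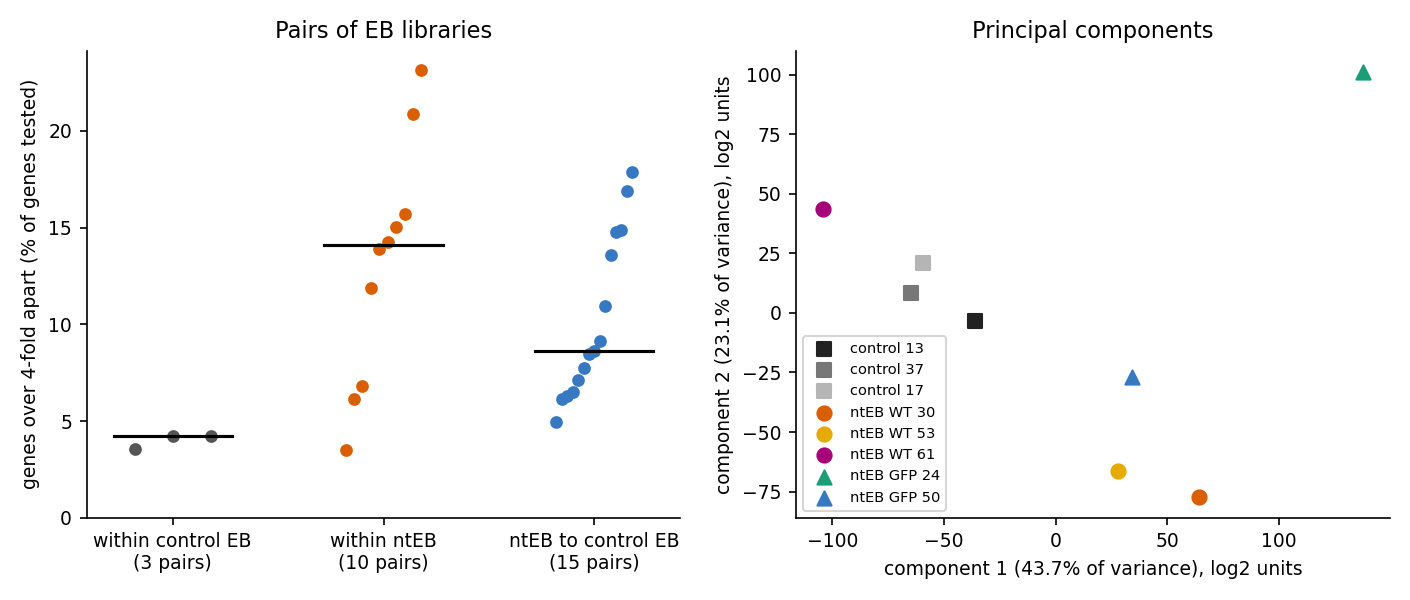
Left, the percentage of tested genes that lay over 4-fold apart in each pair of EB libraries, by kind of pair (points, pairs; bars, medians); right, the 8 libraries on the first 2 principal components of log2(TPM + 0.1), in log2 units. Control pairs sit between 3.54% and 4.22%, ntEB pairs reach 23.2%, and on the first component #61 and #24 take the opposite ends with the controls next to #61.

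Few genes deviated from the controls in every ntEB line. More than 2-fold above the control mean in exactly 1 ntEB line were 3503 genes, in 2 lines 1356, in 3 lines 938, in 4 lines 675 and in all 5 lines 79. More than 2-fold below it were 3273 genes in 1 line, 1094 in 2, 623 in 3, 512 in 4 and 58 in all 5. A gene over 2-fold higher in one ntEB line and over 2-fold lower in another was found 2742 times, 16.5% of genes. By line, the genes over 2-fold higher and lower were 16.2% and 15.4% in #30, 11.6% and 11.4% in #53, 6.11% and 13% in #61, 27% and 10.6% in #24, and 12% and 7.74% in #50. Of the 4485 genes higher in #24, 2199 were higher in that line alone, and of the 2160 genes lower in #61, 1719 were lower in that line alone.

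**Figure D2:**
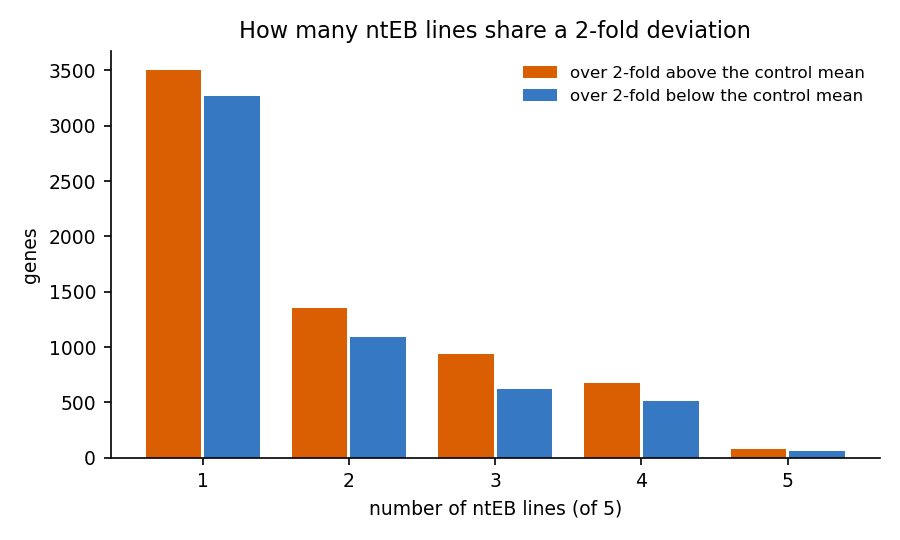
Number of genes (vertical axis) more than 2-fold above (orange) or below (blue) the control EB mean in exactly 1, 2, 3, 4 or 5 of the 5 ntEB lines (horizontal axis). The bars fall from 3503 and 3273 genes in a single line to 79 and 58 genes in all 5.

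Lineage was read from 33 lists of genes by the median over list members of each line's deviation from the control mean. By members with an unadjusted p under 0.05, secreted proteins of liver and yolk sac had the most that were higher (16), and simple epithelium and amnion and trophoblast the most that were lower (10 each). Over all genes, 2.31% were higher and 3.69% lower at that threshold. No member of any list passed the adjusted threshold with all lines. For these 3 lists #30, #53, #24 and #50 lay on one side and #61 lay with the controls. For mesenchyme, the HOXB and HOXC clusters and the BMP pathway #61 lay below the controls and the other 4 lines above. Lists of pluripotency, germline, neural progenitor and ciliated cell genes were set apart by #24.

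**Figure D3:**
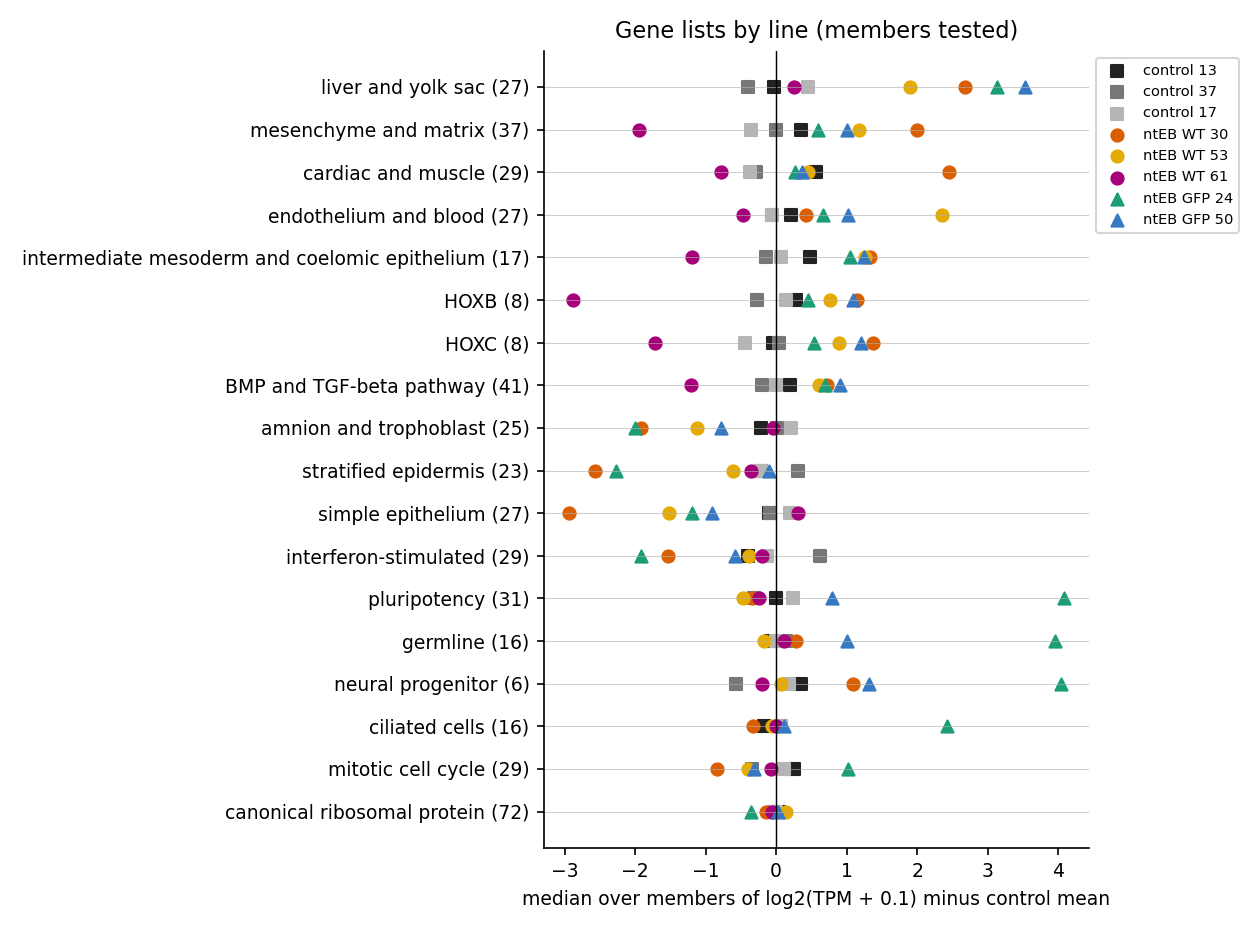
For 18 gene lists (rows, number of members tested in brackets), the median over members of log2(TPM + 0.1) minus the control EB mean, one point per EB line (squares, control; circles, ntEB WT; triangles, ntEB GFP). Liver and yolk sac genes of #30, #53, #24 and #50 sit at 1.90 to 3.53 with #61 at 0.25, whereas pluripotency genes are at 4.09 in #24 alone.

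Liver and yolk sac genes were higher in ntEBs than in control EBs. Of 27 members tested, 24 were above 0 in log2 difference and the median was 2.28, against 0.07 over all genes; 16 were higher at an unadjusted p under 0.05, where 2.31% of all genes were, and none lower. For 7 members (AFP, APOA2, APOH, TF, HPX, TDO2 and CUBN) every ntEB line lay above every control line, as for 2.35% of all genes. Of these, AFP (control mean 0.292 TPM), APOA2 and APOH met the minimum for testing only through the ntEBs. Such members could only come out higher, so these counts were partly set by the minimum. Without #61 the median was 2.86 and 16 of the 27 members passed the test as higher, against 1.98% of all genes, among them AFP, APOB, FGA, FGB, FGG, SERPINA1, TF and RBP4. By line, the median deviation was 2.68 in #30, 1.90 in #53, 3.13 in #24 and 3.53 in #50, but 0.25 in #61, within the control range of -0.40 to 0.45. In bulk EBs a smaller number of cells of a type and less RNA per cell cannot be told apart, and this holds for each list below.

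AFP, the fetal plasma protein of yolk sac and liver, was at 0.0721, 0.145 and 0.66 TPM in control #13, #37 and #17, and at 15.4, 12.3, 1.14, 16.6 and 23.7 TPM in #30, #53, #61, #24 and #50. The lowest ntEB line, #61, was above the highest control, and the other 4 lines were more than 10 TPM. The mean was 13.8 ± 8.23 TPM (SD, n = 5) in ntEB against 0.292 ± 0.32 (SD, n = 3), a log2 difference of 4.96 (SE 0.97, adjusted p = 0.80), and without #61 the difference was 5.71 with an adjusted p of 0.0139. The transferrin gene TF, which encodes the iron carrier of plasma, was at 50.0, 32.7 and 64.3 TPM in control #13, #37 and #17 and at 229, 209, 98.4, 397 and 215 TPM in #30, #53, #61, #24 and #50. Its groups did not overlap, with a log2 difference of 2.15 (SE 0.41, adjusted p = 0.80) and of 2.42 (adjusted p = 0.0323) without #61. SERPINA6, which encodes the corticosteroid carrier of plasma, was at 0.0955, 0 and 2.53 TPM in the controls in that order and at 23.9, 66.5, 3.75, 19.1 and 48.0 TPM in the ntEBs in that order. The lowest ntEB value, that of #61, was close to the control from IVF, and the log2 difference was 5.91 (SE 1.20), or 6.55 with an adjusted p of 0.0361 without #61.

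SERPINA1, the gene of the protease inhibitor alpha-1-antitrypsin, separated the lines in 2 steps. It was at 372, 431, 216 and 419 TPM in #30, #53, #24 and #50, at 3.96 TPM in #61, and at 1.24, 0.117 and 36.3 TPM in control #13, #37 and #17. Among the controls, #17 alone was above 2 TPM and also exceeded #61, so the groups overlapped; the log2 difference was 6.02 (SE 1.95) with all lines and 7.30 (adjusted p = 0.044) without #61. The transthyretin gene TTR, which encodes a thyroid hormone carrier, followed this order with 409, 488, 28.2, 541 and 1097 TPM in #30, #53, #61, #24 and #50 and 9.66, 0.313 and 186 TPM in the controls #13, #37 and #17. APOB, the structural protein of lipoprotein particles, was at 9.06, 13.9, 0.189, 27.5 and 20.2 TPM in the ntEBs and at 0.474, 0.0828 and 1.87 TPM in the controls. For all 3 genes #61 lay among the controls, and #17 was the highest control.

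Some liver genes had no value above 0 in any control EB. APOA2 and APOH, an apolipoprotein of HDL and a phospholipid-binding plasma protein, were listed at 0 in all 3 control EBs. APOA2 was at 1.57, 0.26, 0.115, 1.05 and 1.66 TPM and APOH at 1.93, 0.558, 0.198, 3.92 and 3.12 TPM in #30, #53, #61, #24 and #50. Both were lowest in #61, at values near the floor, and met the minimum for testing only through the ntEBs. The albumin gene ALB, which marks hepatocytes, missed the minimum for testing, with 2.03 TPM in #30, 0.625 or less in the other ntEB lines and 0.349 or less in the controls. LRP2, an endocytic receptor of yolk sac and kidney epithelium, went the other way with 291, 149.6 and 272 TPM in controls #13, #37 and #17 and 33.4, 69.7, 327, 14.6 and 89.6 TPM in ntEBs #30, #53, #61, #24 and #50. Here too #61 was the ntEB line that lay with the controls, above all 3 of them. The log2 difference was -1.85 (SE 0.85, adjusted p = 0.80).

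**Figure D4:**
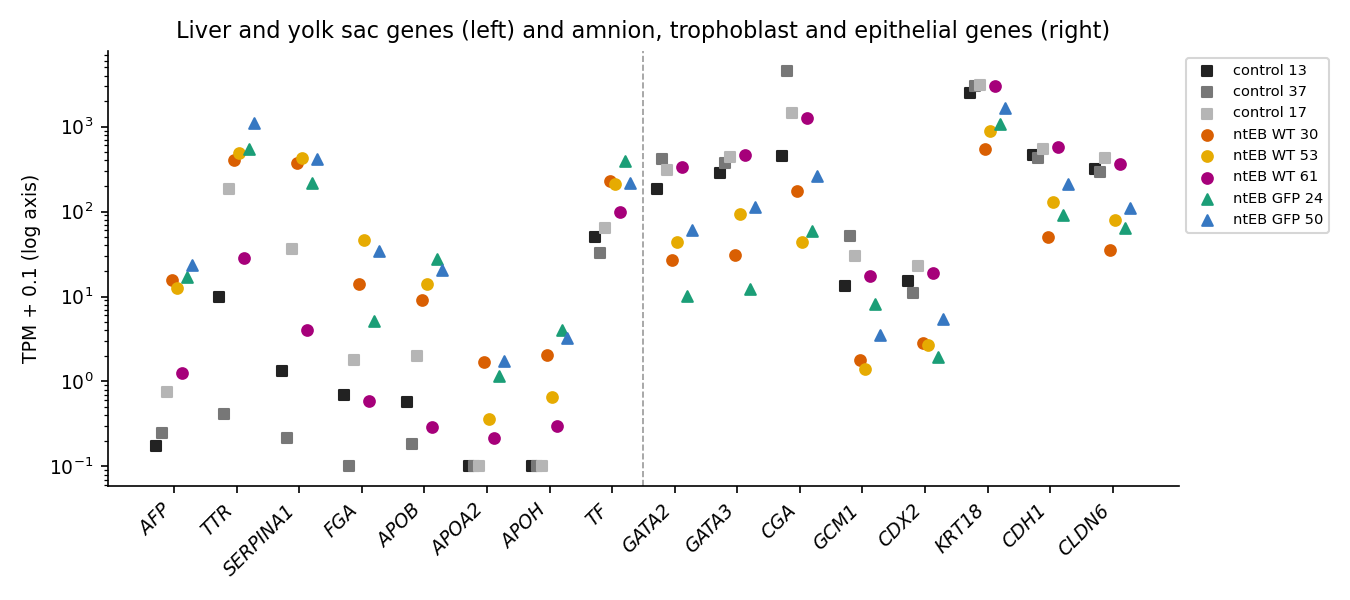
TPM + 0.1 (logarithmic axis) of 8 liver and yolk sac genes and 8 amnion, trophoblast and epithelial genes in each EB library (squares, control; circles, ntEB WT; triangles, ntEB GFP). For AFP the 4 ntEB lines other than #61 sit at 12.3 to 23.7 TPM and the controls below 1 TPM, whereas for GATA2 those 4 lines sit at 10.1 to 59.8 TPM and #61 at 338 TPM among the controls.

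Amnion and trophoblast genes were lower in ntEBs, again apart from #61. Of 25 members tested 20 were below 0, the median log2 difference was -1.22 (-1.57 without #61), and 10 were lower at an unadjusted p under 0.05, against 3.69% of all genes, with none higher. No member had groups that did not overlap. Without #61, TFAP2A, GATA2, CDX2, KRT18, ERVFRD-1 and GCM1 passed the test as lower and no member as higher. Over all genes 1.63% passed as lower without #61. The list's median deviation was -1.91 in #30, -1.13 in #53, -2.0 in #24 and -0.78 in #50, and -0.04 in #61.

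GATA2, a transcription factor of trophoblast, amnion and blood progenitors, was at 183, 415 and 306 TPM in control #13, #37 and #17 and at 27.0, 43.5, 338, 10.1 and 59.8 TPM in #30, #53, #61, #24 and #50. All ntEB lines but #61 lay below the lowest control, with a log2 difference of -2.58 (SE 0.95, adjusted p = 0.80), or -3.29 (adjusted p = 0.0386) without #61. GATA3, which acts with it in trophoblast, was at 281, 369 and 444 TPM in the controls and at 30.4, 93.9, 469, 12.0 and 113 TPM in the ntEBs. The pattern over lines was that of GATA2. CGA, the gene of the common alpha subunit of chorionic gonadotropin and the pituitary glycoprotein hormones, was at 454, 4578 and 1435 TPM in the controls and at 176, 43.7, 1266, 58.2 and 261 TPM in the ntEBs. The controls differed widely among themselves for this gene, with #37 highest and #13 lowest, and the log2 difference was -3.07 (SE 1.13).

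GCM1, a transcription factor required for the fusing syncytiotrophoblast, was at 13.2, 51.8 and 30.3 TPM in controls #13, #37 and #17 and at 1.67, 1.29, 17.5, 8.06 and 3.39 TPM in ntEBs #30, #53, #61, #24 and #50. CDX2, a factor of trophectoderm and of hindgut, was at 15.0, 10.8 and 22.6 TPM in the controls and 2.71, 2.56, 18.8, 1.86 and 5.33 TPM in the ntEBs. For both genes #61 was inside the control range and the other 4 lines were below it. The log2 difference of CDX2 was -1.85 (SE 0.70), and -2.38 without #61 (adjusted p = 0.037), and that of GCM1 was -2.73 (SE 0.85), and -3.25 without #61 (adjusted p = 0.0472).

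Genes of simple epithelium were lower in 4 ntEB lines. Of 27 members tested, 26 were below 0 with a median log2 difference of -1.13, and 10 were lower at an unadjusted p under 0.05, where 3.69% of all genes were. The control lines spread by 0.25 log2 units on this list and the ntEB lines by 1.6 (median over members). The deviation was -2.94 in #30, -1.52 in #53, -1.20 in #24 and -0.91 in #50, against 0.31 in #61. The summed level of the members was 8208 to 10088.5 TPM in control EBs and 1742 in #30, 3448 in #53, 4160 in #24, 5518 in #50 and 10242 in #61. Without #61, 7 members passed as lower, against 1.63% of all genes. They were KRT8, KRT18, CDH1, CLDN6, RAB25, TJP3 and CRB3, which encode keratins of simple epithelia, E-cadherin and parts of cell junctions and polarity.

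CDH1, which encodes E-cadherin, was at 468, 426 and 553 TPM in control #13, #37 and #17 and at 50.0, 128, 583, 89.8 and 208 TPM in #30, #53, #61, #24 and #50. CLDN6, a tight junction claudin of embryonic epithelium, was at 320.4, 294 and 426 TPM in the controls and at 35.0, 80.3, 366, 63.3 and 111 TPM in the ntEBs. In #61 CDH1 was above every control and CLDN6 was inside the control range, while the other 4 lines lay below the controls for both. The log2 difference was -1.70 for CDH1 (SE 0.68; -2.19 without #61, adjusted p = 0.0438) and -1.87 for CLDN6 (SE 0.64; -2.36 without #61, adjusted p = 0.0361). EPCAM, an adhesion molecule of epithelium that pluripotent cells also carry, departed from them, with 271, 256 and 363 TPM in the controls and 45.4, 79.7, 406, 635 and 135 TPM in the ntEBs. Line #24 was here the highest of all 8 EBs.

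Genes of stratified epidermis were lower in a subset of lines. The median log2 difference over 23 members was -1.16, with 21 below 0. At an unadjusted p under 0.05, 6 were lower and 1 higher, where 3.69% and 2.31% of all genes were. The deviation was -2.57 in #30 and -2.27 in #24, but -0.61 in #53, -0.36 in #61 and -0.11 in #50, which were nearer to the control range of -0.22 to 0.31. TP63, the factor that commits surface ectoderm to epidermis, was at 6.16, 4.23 and 6.63 TPM in controls #13, #37 and #17 and at 0.457, 1.75, 11.7, 0.25 and 2.25 TPM in ntEBs #30, #53, #61, #24 and #50. It was thus highest in #61. PRR9, a proline-rich protein gene of the epidermal differentiation complex, was at 565, 2616 and 709 TPM in the controls and at 61.1, 56.5, 871, 37.9 and 93.0 TPM in the ntEBs. Its log2 difference was -3.33 (SE 0.99), and without #61 it was -4.10 with an adjusted p of 0.0324.

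Mesenchyme and matrix genes did not separate the groups as a whole. None of 37 members had an unadjusted p under 0.05, although 34 were above 0, and the median was 0.57 (1.19 without #61). The deviation was 2.00 in #30, 1.18 in #53, 0.59 in #24 and 1.00 in #50, and -1.94 in #61. The summed level of the members was 14168 to 22403 TPM in control EBs, 66613 in #30, 41411 in #53, 25434 in #24, 34085 in #50 and 4750.4 in #61, so 4 ntEB lines lay above the controls and 1 below. Without #61, 6 of the 37 members passed as higher (COL6A1, COL6A2, FBLN1, PDGFRA, PDGFRB and ZEB2), against 1.98% of all genes.

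COL1A2, a chain of type I collagen, was at 2065, 2012 and 1014 TPM in control #13, #37 and #17 and at 7543, 3464, 430.1, 2631 and 2676 TPM in #30, #53, #61, #24 and #50. PDGFRA, the PDGF receptor of early mesenchyme, was at 113, 66.6 and 87.7 TPM in the controls and at 232, 333, 13.5, 172 and 266 TPM in the ntEBs. For both genes 4 ntEB lines were above the highest control and #61 was below the lowest. The log2 difference of PDGFRA was 0.65 (SE 0.95, adjusted p = 0.885), and 1.49 without #61 (adjusted p = 0.0386). HAND2, a factor of lateral plate mesoderm and heart, was at 31.7, 31.8 and 31.7 TPM in the controls and at 93.4, 194, 9.43, 61.4 and 106 TPM in the ntEBs. The 3 controls were level to within 1 TPM while the ntEBs ranged widely on both sides of them. Its log2 difference was 1.02 (SE 0.83), and 1.71 without #61 (adjusted p = 0.0449).

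Muscle and endothelial genes were led by single lines. Over 29 genes of heart and muscle the deviation was 2.44 in #30 and between -0.78 and 0.44 in the other ntEB lines, where controls lay at -0.37 to 0.57. MYH6, MYL2 and PLN met the minimum for testing only through #30 and could only place that line high. The deviation of #30 was thus partly set by the minimum. In #30, 22 members were over 2-fold above the control mean and 3 over 2-fold below it. The lower ones were ACTA1, MYL3 and NPPB, at 20.9, 11.2 and 16.6 TPM in #30. Their lowest control values were 380, 28.6 and 38.7 TPM. MYH6, the atrial myosin heavy chain, was at 53.7 TPM in #30 and at 0.861 TPM or less in the other 7 libraries. NPPA, the atrial natriuretic peptide, was at 161 TPM in #30, 11.6 TPM in control #13 and 0.573 TPM or less elsewhere. The intermediate filament gene DES was at 56.8, 24.8 and 8.28 TPM in controls #13, #37 and #17 and at 176, 69.5, 3.18, 68.3 and 73.8 TPM in ntEBs #30, #53, #61, #24 and #50. It was lowest in #61, and its log2 difference was 1.01 (SE 1.20, adjusted p = 0.867).

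Over 27 endothelial and blood genes the deviation was 2.35 in #53 and between -0.48 and 1.02 in the other ntEB lines. CDH5, the cadherin of endothelial junctions, was at 32.4 TPM in #53, at 3.39, 6.83, 4.52 and 5.77 TPM in #30, #61, #24 and #50 and at 4.90, 2.75 and 1.47 TPM in control #13, #37 and #17. CD34, a surface protein of endothelium and blood progenitors, was at 3.58, 16.2, 0.525, 7.91 and 4.35 TPM in the ntEBs and at 1.76, 0.696 and 0.606 TPM in the controls. Line #53 was highest for both. PECAM1, another endothelial marker, did not follow them: it was at 60.8, 107 and 107 TPM in the controls and at 46.5, 97.5, 75.2, 101 and 60.3 TPM in the ntEBs. Its log2 difference was -0.28 (SE 0.31, adjusted p = 0.855).

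Genes of the HOXB and HOXC clusters, which set position along the body axis, were higher than in controls in 4 ntEB lines and lower in #61. For 8 HOXB genes the deviation was 1.14 in #30, 0.76 in #53, 0.45 in #24 and 1.09 in #50, and -2.89 in #61. For 8 HOXC genes it was 1.37, 0.89, 0.54 and 1.21 in the same order of lines, and -1.72 in #61. HOXB4 was at 3.92, 2.79 and 2.82 TPM in control #13, #37 and #17 and at 9.45, 5.48, 0.313, 5.69 and 8.06 TPM in #30, #53, #61, #24 and #50. All 4 other ntEB lines were above the controls and #61 was below them. HOXC8 was at 22.2, 14.7 and 11.7 TPM in the controls and at 65.2, 29.3, 4.14, 18.7 and 29.6 TPM in the ntEBs, with #61 again lowest. For 4 HOXD genes #61 was at 0.09, inside the control range of -0.36 to 0.37, and the other ntEB lines were at 0.40 to 3.18. Over 10 HOXA genes the deviations were smaller, from -0.43 in #61 to 0.60 in #50. No HOXB gene passed without #61, and in HOXC only HOXC12 did, as lower.

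Signalling genes were counted over whole pathways, since EB fate depends on ligands made by the cells. For 41 genes of the BMP and TGF-beta pathway the median log2 difference was 0.38, with 2 higher and 2 lower at an unadjusted p under 0.05, near the all-gene shares of 2.31% and 3.69%, and the deviation was -1.22 in #61 and 0.61 to 0.91 in the other ntEB lines. Of 49 WNT pathway genes none was higher and 7 were lower at that threshold, against the same shares, with a median of 0.03. FZD5, LGR5 and WNT7A were lower in every ntEB line, as for 2.02% of all genes. FZD5, a WNT receptor, was at 48.8, 43.2 and 47.0 TPM in controls #13, #37 and #17 and at 4.82, 12.8, 31.6, 11.3 and 15.4 TPM in ntEBs #30, #53, #61, #24 and #50. Every ntEB line was below the controls, with a log2 difference of -1.85 (SE 0.50, adjusted p = 0.80; -2.17 without #61, adjusted p = 0.0379). LGR5, the receptor for R-spondins, was at 7.15, 6.79 and 5.85 TPM in the controls and at 4.15, 1.77, 0.601, 1.87 and 2.96 TPM in the ntEBs, lowest in #61. Of 17 retinoic acid genes 3 were higher and none lower at an unadjusted p under 0.05, where 2.31% of all genes were higher. Without #61, 4 passed as higher, against 1.98% of all genes. ALDH1A2, which encodes a retinoic acid-making enzyme, and STRA6, the retinol uptake receptor, were among them.

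Pluripotency genes were high in 1 ntEB line. Over 31 members the deviation was 4.09 in #24, 0.79 in #50 and between -0.47 and -0.24 in the 3 WT lines, with controls at -0.32 to 0.24. PRDM14, a member of this list, met the minimum for testing only through #24, at 342 TPM against 2.91 TPM or less elsewhere. The deviation of #24 was thus partly set by the minimum. POU5F1, the central factor of the pluripotent state, was at 0.7, 0.487 and 3.32 TPM in control #13, #37 and #17, at 0.962, 0.506 and 0.673 TPM in #30, #53 and #61, at 1247 TPM in #24 and at 25.8 TPM in #50. NANOG, which works with it, was at 831 TPM in #24, 15.0 TPM in #50 and 0.482 TPM or less in the other 6 EBs. SOX2 was at 209 TPM in #24, 3.86 TPM in #50 and 0.112 TPM or less in the others. The 2 GFP lines thus stood above the WT and control lines for all 3 factors, #24 by far the more. The log2 differences between groups were 2.57 for POU5F1 (SE 2.40), 3.84 for NANOG (SE 2.63) and 3.01 for SOX2 (SE 2.44), with adjusted p-values of 0.837, 0.813 and 0.825.

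Line #24 also stood apart in lists named for other programs, whose genes named here were also expressed by the undifferentiated lines. Germline genes deviated by 3.96 in #24 and 1.00 in #50, and DPPA3, a gene of naive cells and germ cells, was at 399 TPM in #24, 6.34 in #50, 4.24 in #30 and 0.396 or less in the other 5 EBs. TDRD1, PIWIL1 and BRDT of the germline list met the minimum for testing only through #24. They were at 13.2, 16.5 and 13.3 TPM there and at 0.486 TPM or less elsewhere. Such members could only place #24 high, so the germline deviation of #24 was partly set by the minimum. The mesoderm factor TBXT, which also met the minimum only through #24, was at 93.8 TPM in #24, 0.702 TPM in #50 and listed at 0 in the other 6. FOXJ1, the master factor of motile cilia, was at 144 TPM in #24, 2.75 in #50 and 0.914 or less in the others, and the list of ciliated cell genes deviated by 2.43 in #24 and by -0.32 to 0.11 in the other ntEB lines. In the stem cells of the same 8 lines, whose table was normalized separately, DPPA3 was at 66.3 to 321 TPM, TBXT at 9.96 to 56.7 TPM and FOXJ1 at 42.6 to 206 TPM. The EB levels of DPPA3 and FOXJ1 in #24 were thus near or above those of ntESC #24, which were 185 and 139.8 TPM. Of 30 neural progenitor genes only 6 reached the minimum for testing, and these deviated by 4.04 in #24 and 1.31 in #50. Part of this deviation was set by the minimum, since ZIC2 met it through #24. It was at 66.4 TPM in #24, 2.20 TPM in #50 and 0.179 TPM or less in the others. Mitotic genes, which follow the share of dividing cells, deviated by 1.01 in #24, -0.84 in #30 and between -0.40 and -0.08 in the other ntEB lines.

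**Figure D5:**
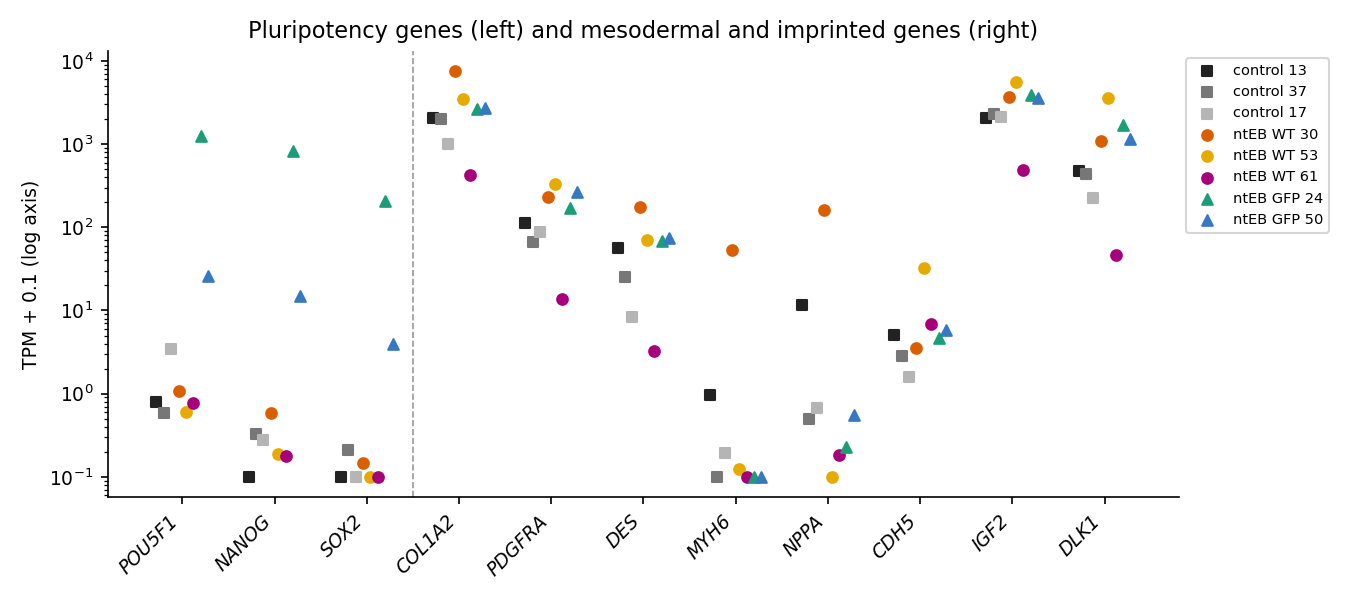
TPM + 0.1 (logarithmic axis) of 3 pluripotency factors and 8 mesodermal and imprinted genes in each EB library (squares, control; circles, ntEB WT; triangles, ntEB GFP). POU5F1 sits at 1247 TPM in #24, MYH6 and NPPA sit highest in #30, CDH5 in #53, and PDGFRA, DES, IGF2 and DLK1 sit lowest in #61.

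Interferon-stimulated genes were lower in some ntEB lines. The list's median deviation was -1.54 in #30, -1.91 in #24 and -0.58 in #50, while -0.38 in #53 and -0.20 in #61 were inside the control range of -0.40 to 0.62. Of 29 members tested 24 were below 0, 8 were lower and none higher at an unadjusted p under 0.05 (3.69% of all genes were lower), and the median was -0.98. For 5 members (IFI6, MX2, OAS2, OAS3 and DDX58) every ntEB line lay below every control line, as for 2.02% of all genes. OAS3, an enzyme of antiviral defence, was at 26.2, 42.6 and 31.3 TPM in control #13, #37 and #17 and at 2.14, 19, 23.2, 2.49 and 12.7 TPM in #30, #53, #61, #24 and #50. IFI6, an interferon-induced membrane protein gene, was at 1439, 2235 and 1603 TPM in the controls and at 249, 837, 1394, 148 and 982 TPM in the ntEBs. Lines #30 and #24 were lowest for both genes, and #61 was just below the lowest control. The log2 differences were -2.03 (SE 0.83) for OAS3 and -1.70 (SE 0.71) for IFI6, and no member passed without #61 either.

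Imprinted genes are expressed from 1 parental copy and can be disturbed by nuclear transfer. Of 28 members tested none was higher and 1, PHLDA2, was lower at an unadjusted p under 0.05, where 2.31% and 3.69% of all genes were. The median was 0.22. PHLDA2, a maternally expressed growth restrainer of the placenta, was at 78.4, 201 and 147 TPM in controls #13, #37 and #17 and at 22.6, 28.7, 108, 18.1 and 48.7 TPM in ntEBs #30, #53, #61, #24 and #50. Line #61 was inside the control range and the other 4 were below it, with a log2 difference of -1.87 (SE 0.58) and of -2.26 (adjusted p = 0.0396) without #61. IGF2, the paternally expressed fetal growth factor, was at 2084, 2275 and 2089.5 TPM in the controls and at 3690.1, 5549, 488, 3862 and 3563 TPM in the ntEBs. The controls were nearly level, 4 ntEB lines were above them, and #61 was far below. The log2 difference was 0.32 (SE 0.70), and 0.93 without #61 (adjusted p = 0.0447). DLK1, a paternally expressed Notch-like protein of mesenchyme and fetal liver, was at 478, 437 and 223 TPM in the controls and at 1085, 3558, 45.7, 1712 and 1138 TPM in the ntEBs. It followed the same order, and without #61 its log2 difference was 2.20 (adjusted p = 0.0459), whereas with all lines it was 1.17 (SE 1.22). Besides these, RTL1, PEG3 and TFPI2 passed as higher without #61, as 1.98% of all genes did. TPM here do not tell the parental copies apart.

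Canonical ribosomal protein genes differed little between the groups in EBs. The median over 72 genes was -0.07, with 1 higher and none lower at an unadjusted p under 0.05. Over all genes these shares were 2.31% and 3.69%. The spread among ntEB lines was 0.29 log2 units against 0.09 among controls. The median deviation ran from -0.35 in #24 to 0.14 in #53. Outside this list, LOC103793262, named RPL3-like by the authors, was at 8.75, 9.80 and 19.4 TPM in control #13, #37 and #17. It was at 2.30, 0.685, 0.760, 0.462 and 1.64 TPM in #30, #53, #61, #24 and #50. Its groups did not overlap, with a log2 difference of -3.45 (SE 0.55, limma adjusted p = 0.80).

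The genes whose groups did not overlap included a few that were even across the ntEB lines. Of the 15 named genes with the largest differences in each direction, chosen for groups that did not overlap, log2 differences ran from 1.20 to 5.91 in the higher set and from -4.37 to -2.12 in the lower set, and none passed the test with all lines. Without #61, 6 of the higher set passed (SERPINA6, AFP, TF, ETS1, BRD9 and MAPRE2) and 5 of the lower set (EDDM3A, LMO1, SLC12A3, PPM1N and KBTBD11). BRD9, a bromodomain subunit of a chromatin remodelling complex, was at 3.94, 4.39 and 3.97 TPM in control #13, #37 and #17 and at 9.4, 11, 8.89, 15.5 and 9.76 TPM in #30, #53, #61, #24 and #50. Both groups were tight, and even #61 was over 2-fold above the highest control. The mean was 10.9 ± 2.69 TPM (SD, n = 5) against 4.10 ± 0.252 (SD, n = 3), a log2 difference of 1.36 (SE 0.25, adjusted p = 0.80; 1.43 without #61, adjusted p = 0.0374).

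MAPRE2, a protein of growing microtubule ends, was at 15.2, 11.3 and 10.9 TPM in control #13, #37 and #17 and at 27.8, 38.9, 20.4, 29.1 and 29.1 TPM in #30, #53, #61, #24 and #50. ETS1, a transcription factor of endothelium, blood and mesenchyme, was at 25.4, 12.3 and 20.6 TPM in the controls and at 40.2, 69.7, 38.7, 43.8 and 66.8 TPM in the ntEBs. Neither gene overlapped, and #61 was the lowest ntEB line for both. The log2 difference was 1.20 (SE 0.24) for MAPRE2 and 1.43 (SE 0.31) for ETS1, with adjusted p-values of 0.0361 and 0.0459 without #61.

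LMO1, a LIM-only transcriptional cofactor, was at 21.1, 25.5 and 18 TPM in control #13, #37 and #17 and at 1.85, 2.39, 17.0, 2.12 and 1.61 TPM in #30, #53, #61, #24 and #50. The 4 lines other than #61 were alike and far below the controls, and #61 was just below the lowest control. The log2 difference was -2.76 (SE 0.72, adjusted p = 0.80), and -3.37 without #61 with an adjusted p of 0.00785. PPM1N, which encodes a protein phosphatase, was at 66.5, 47.5 and 53.3 TPM in the controls and at 4.29, 9.46, 25.7, 4.58 and 10.8 TPM in the ntEBs. Here #61 too was below the controls by a clear margin, with a log2 difference of -2.64 (SE 0.55; -3.02 without #61, adjusted p = 0.0323). ISM2, which encodes a secreted protein, was at 180.2, 95.2 and 183 TPM in the controls and at 3.86, 30.9, 45.2, 5.59 and 40.4 TPM in the ntEBs. Every ntEB line was below the lowest control, #30 and #24 the furthest. Its log2 difference was -3.14 (SE 0.86), and its adjusted p without #61 was 0.0595.

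Each of the 8 EBs, controls included, had genes that stood above the 7 other EBs, since such genes were picked in every line by their excess. Among controls, LYPD3 was at 246 TPM in #13, against 72.2 TPM or less elsewhere. MARCHF11 was at 28.9 TPM in #37, against 5.29 TPM or less, and SLC16A11 at 58.1 TPM in #17, against 31.8 TPM or less. In #61, PENK, the gene of the opioid peptide precursor proenkephalin, was at 2774 TPM, against 8.98 to 46.5 TPM in the other ntEB lines and 152 to 289.6 TPM in the controls. The other 4 ntEB lines were thus below the controls, and without #61 the log2 difference of PENK was -3.18 (adjusted p = 0.037), against -1.83 (SE 1.58) with it. The carbonyl reductase gene CBR1 was at 708 TPM in #61, 138 TPM in #24 and 24.1 to 71.2 TPM in the other 6 EBs. SLC38A4, an amino acid transporter gene, was at 158 TPM in #61 and 1.19 TPM in #30, while the controls lay at 20.8 to 26 TPM and #53, #24 and #50 at 19.9, 15.3 and 8.43 TPM.

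In #53 the genes that stood out most were CCL15, TNFSF11, MMP1, CDH5 and SPX. The chemokine gene CCL15 was at 448 TPM there, against 8.41 to 72.8 TPM in the other ntEB lines and 0.883 to 3.89 TPM in the controls, which did not overlap with any ntEB. TNFSF11, the cytokine RANKL of bone remodelling, was at 78.3 TPM in #53 and between 1.13 and 15.2 TPM in the other 7 EBs. In #30 they were MYH6, PLN, RGS5, NPPA and OGN, of which PLN, the regulator of the cardiac calcium pump, was at 26.9 TPM against 1.64 TPM or less elsewhere, and RGS5, a pericyte and smooth muscle gene, at 164 TPM against 11.5 TPM or less. In #50 the excess was smaller, led by the antimicrobial peptide gene DEFB1 at 53.0 TPM against 15.5 TPM or less, and by the gelatinase gene MMP9 at 158 TPM against 63.7 TPM or less. In #24 they were TBXT, PRDM14, CAMKV, SGSM1 and CHST8, and PRDM14, a factor of pluripotent and primordial germ cells, was at 342 TPM against 2.91 TPM in #50 and 0.129 TPM or less in the rest.

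Among 8477 named genes that the 3 control EBs expressed evenly (each at least 5 TPM, within 1 log2 unit), those that varied most among ntEBs were DPPA4, SPRR3, PENK, WNT6, PDPN, DNMT3B, CA6, CLDN8, SLC38A4 and MYL3. DPPA4, a chromatin protein of pluripotent cells, was at 39.0, 34.5 and 42.7 TPM in control #13, #37 and #17 and at 4.18, 2.04, 19.7, 550.0 and 24.7 TPM in #30, #53, #61, #24 and #50. DNMT3B, a de novo DNA methyltransferase, was at 35.8, 33.3 and 52.7 TPM in the controls and at 5.98, 7.29, 47.7, 590.5 and 14.2 TPM in the ntEBs. Controls thus kept a moderate level of both, which #30, #53 and #50 did not reach and #24 exceeded. The claudin gene CLDN8 was at 117, 98.1 and 178 TPM in the controls and at 15.0, 17.5, 234, 1.16 and 23.6 TPM in the ntEBs, and WNT6, a ligand of surface ectoderm, at 105, 83.7 and 61.7 TPM and at 3.09, 27.7, 115, 0.966 and 29.5 TPM in the same order. Both were highest in #61 and lowest in #24.

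The WT and GFP ntEBs were compared with each other as a check on pooling them. Of the 16621 genes 3 passed the test, 0.018%. LOC100401954, annotated as protein coding, was at 3.50, 3.71 and 3.29 TPM in #30, #53 and #61, at 115 and 128 TPM in #24 and #50 and at 2.27 to 3.74 TPM in the controls, a WT minus GFP log2 difference of -5.08 (SE 0.31, adjusted p = 0.00413). In the stem cells of the 4 GFP lines it was at 99.7 to 126 TPM, against 1.59 to 3.76 TPM in all other stem cell and fibroblast libraries. LOC118142887 was at 9.17, 5.64 and 4.30 TPM in the WT ntEBs, 95 and 138 TPM in the GFP ntEBs and 87.4 to 169 TPM in the controls (-4.22, SE 0.40, adjusted p = 0.0391). For that gene the GFP lines were alike with the controls and the WT lines were apart. LOC118153924 was at 6.47, 8.55 and 8.30 TPM in the WT ntEBs, was listed at 0 in both GFP ntEBs and stood at 3.14 to 7.12 TPM in the controls (adjusted p = 0.0106). No lineage gene named above was among the 3.

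The same 8 lines were also measured as stem cells, which allowed the comparison before differentiation. There 1 gene of 16014 passed, 0.00624%, with 418 genes higher (2.61%) and 518 lower (3.23%) at an unadjusted p under 0.05. It was LOC100391995, a transcribed pseudogene at 0.183 to 0.190 TPM in the control stem cells and at 4.92, 3.77, 4.33, 2.39 and 3.69 TPM in ntESC #30, #53, #61, #24 and #50 (log2 difference 3.74, SE 0.31, adjusted p = 0.0152). In EBs LOC100391995 was at 0.214 TPM in control #13, was listed at 0 in #37 and #17 and was at 3.99, 1.71, 3.29, 2.84 and 2.33 TPM in the ntEBs, with an adjusted p of 0.273. At both stages every cloned line was above every control line. The lists were compared at that stage too. The median over 14 liver and yolk sac genes was 0.37 with none past an unadjusted p of 0.05, that over 22 amnion and trophoblast genes 0.37 with 2 higher and 1 lower, and that over 27 simple epithelium genes -0.21 with 2 lower. Of 72 canonical ribosomal protein genes, 20 were higher and none lower at that threshold in the cloned stem cells, with a median of 0.17. For HOXA, HOXB and HOXC the stem cell medians were above those of EBs, at 0.93 over 7 HOXA genes, 1.13 over 8 HOXB genes and 2.02 over 3 HOXC genes, against 0.19, 0.10 and 0.51 in EBs, with none past that threshold at the stem cell stage. The lines were split there. HOXC6 was at 1.87, 4.57 and 1.47 TPM in ntESC #30, #53 and #50, listed at 0 in #61 and #24, and at 0.220 TPM or less in controls. HOXB6 was at 18.8, 20.7 and 6.91 TPM in #30, #53 and #50. It was at 0.345 and 0.565 TPM in #61 and #24, and at 0.324 to 5.44 TPM in controls. Whether the difference between stages was larger than the spread was not tested.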

How the data were processed

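Poly(A) RNA of 5 ntEB and 3 control EB lines was sequenced from stranded libraries. The authors trimmed reads with fastp, aligned them with STAR to the marmoset assembly calJac4, counted unique hits with featureCounts without the sex chromosomes, and deposited TPM values. What annotation, strand setting and sequencer were used for each library is not given in the sources used here. Since reads with several matches were dropped, genes with near-identical copies are undercounted. TPM keep no depth, which is therefore unknown apart from the relative estimate.

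Here log2(TPM + 0.1) of genes averaging 0.5 TPM or more was fitted with limma 3.58.1 (trended eBayes) in R 4.3.3, Benjamini-Hochberg adjusted at 0.05 and tested on simulated data; spread was tested by exact permutation over lines in Python 3.11.15. Further, 3 genes annotated on sex chromosomes in RefSeq were dropped. Of 22803 genes, 19656 matched RefSeq, which was used for names, gene types and this removal. Genes without a match could not be screened in this way. No column of per-sample values was left unused (0). Members and gene lists were chosen with earlier results of these data known. Named genes were those with the largest differences among non-overlapping genes (higher mean of 5 TPM or more), the 5 largest of each list, the 5 that led each line, the 10 that varied most among ntEBs, and 8 defining markers; others, such as GATA3, CDH1, EPCAM, PECAM1, APOB, PDGFRA, HAND2, IGF2 and FZD5, were chosen after their values were seen. Alternatives were another pseudocount, minimum, scaling, spread model, weights, genotype arm and leaving out each line.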

Additional observations from a re-analysis of the deposited data

Results flagged for a closer look

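Among the 5 ntEB lines, 103 values (medians of lists, named genes and library measures) were tested for a line that stands apart by Dixon's ratio, and 23 were past the critical value of 0.71, 22.3%, where chance gives about 1 in 20. Many of the genes were named for large differences, so this share describes the genes named and not all genes.

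Line #61 stood apart on the low side for the list medians of HOXB (-2.89), HOXC (-1.72), the BMP and TGF-beta pathway (-1.22) and intermediate mesoderm and coelomic epithelium (-1.20), each a deviation in log2 units from the control mean. The same line was lowest in AFP at 1.14 TPM, TTR at 28.2 TPM, SERPINA1 at 3.96 TPM, APOB at 0.189 TPM, PDGFRA at 13.5 TPM, DES at 3.18 TPM, IGF2 at 488 TPM and DLK1 at 45.7 TPM. It was highest in PRR9 at 871 TPM, LMO1 at 17.0 TPM and PENK at 2774 TPM.

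Line #24 stood apart on the high side for the list medians of pluripotency (4.09), germline (3.96) and ciliated cells (2.43), for the number of genes at 1 TPM or more (15655) and for the median deviation of all genes (0.37). Genes high only in #24 could enter these lists through that line. PRDM14 of the pluripotency list and TDRD1, PIWIL1 and BRDT of the germline list did, so those medians were partly set by the minimum for testing. Line #24 was lowest in MX2, an interferon-induced GTPase gene, at 0.665 TPM. Line #30 stood apart in NPPA at 161 TPM and MYH6 at 53.7 TPM. Both genes had been chosen for leading #30, and MYH6 met the minimum for testing only through that line.

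Between WT and GFP ntEBs, LOC100401954 (-5.08, WT minus GFP, log2), LOC118142887 (-4.22) and LOC118153924 (6.29) differed by the test across all genes. The last value depends on the pseudocount, since LOC118153924 was listed at 0 in both GFP lines.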

How the results depend on the processing

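The count of genes past the adjusted threshold was 0 with all lines and ran from 0 to 602 when each line was left out, with 602 reached without #61 and no more than 2 without any other. It was 1 with a spread estimated per group, 1 with a pseudocount of 0.01 and 2 with the GFP lines alone, and 0 under the remaining settings. The difference in spread kept its direction throughout: it was 0.268 to 0.316 with p = 0.0357 by the exact permutation test under 6 settings of scaling, pseudocount and minimum, 0.288 when SD replaced pair differences, and 0.191 to 0.394 when each line was left out, where no p was below 0.0571. Between WT and GFP the count of 3 became 1 with a pseudocount of 1 and ran from 0 to 634 with a line left out, the highest without GFP #50, which leaves a single GFP line that is assumed to vary like the others. At the stem cell stage the count of 1 became 2 with a pseudocount of 1 and 3 with all 11 stem cell libraries. Of 1239 log2 differences of named genes under an alternative, 6 reversed: POU5F1 to -0.56 with the WT lines alone, NPPA from -0.95 to 0.035 with a pseudocount of 1 and to 0.50 without control #13 (range with a line left out -2.86 to 0.50), MYH6 from 0.47 to -0.45 with a pseudocount of 0.01 and to -0.24 without control #37 (range -0.24 to 1.39), and DPPA4 to 1.59 with the GFP lines alone. A further 34 passed the threshold, and the other 1199 kept direction and side. Of 461 list medians 460 moved by less than the spread between lines, the exception was definitive endoderm and gut, from 0.20 to -0.82 with a minimum of 2 TPM, and at that minimum no HOXD gene was left to give one. Scaling moved the median of all genes from 0.07 to 0.02 by quantile normalization and 0.04 by median ratios. The share of genes at an unadjusted p under 0.05 that were higher in ntEB was 38.5% with all lines, 59.6% with the GFP lines alone and 57.9% without #61. No paired analysis was possible because the EB groups compared share no line number. Each line is 1 library and TPM keep no depth, which limits what can be said of genes near 0.5 TPM.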
